A study of Homo sapiens with 3 samples.

Results

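Integrins are the receptors that tie a cell to the extracellular matrix, and focal adhesion proteins are the adaptors, kinases and actin linkers that gather at their cytoplasmic ends. With earlier results of these data known, a set of 36 such genes was picked by name from the 19266 genes of the deposited tables: 5 alpha and 6 beta integrin subunits, the talins and kindlins that switch integrins on, the ILK, PINCH and parvin complex, adaptors and kinases, actin linkers, and the hyaluronan receptor CD44. They were followed in KYSE510, an established line of human esophageal squamous cell carcinoma, after lentiviral delivery of hairpin 1 (sh1) or hairpin 2 (sh2) against the transcript TCONS_02256997, with a scrambled hairpin as control. All 3 groups had 24 h of virus and then 48 h under 4 µM puromycin, so the control cells carry a virus and its selection too. Each group is 1 sample of 1 cell line that was deposited as 3 numbered gene tables, called libraries below. No label tells if they came from different cultures, so every SD, SE and adjusted p measures how far these libraries lie apart, and that may be a technical matter. A state that all libraries of 1 sample share cannot be told apart from the effect of its hairpin.

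Total expected counts per library were 14660821 to 14770512 with sh1, 15759270 to 16092417 with sh2 and 15012961 to 15414591 in control. The labelled cell type was checked against 11 epithelial markers, of which CDH1 and EPCAM are not specific to squamous epithelium. All 11 markers passed the filter on low counts. Their summed level was 4820 to 4880 CPM (counts relative to the scaled size of their library) with sh1, 5540 to 5700 CPM with sh2 and 6520 to 6560 CPM in control, where KRT5 and KRT17 were the main part. The list did not move one way. KRT5, KRT14, TP63, DSG3 and SFN were called lower with both hairpins. For TP63 the log2 fold change was -1.28 ± 0.030 with sh1 and -1.16 ± 0.030 with sh2. SOX2 (1.26 ± 0.056 with sh1 and 0.74 ± 0.060 with sh2) and EPCAM (0.99 ± 0.028 with sh1 and 0.51 ± 0.028 with sh2) were called higher with both. KRT17 was called lower with sh1 only and PKP1 with sh2 only, while CDH1 was called higher with sh1 only and KRT6A with sh2 only. The part of these differences in the results was not tested. Of 5 fibroblast markers only COL1A1 passed the filter, and the summed level was 53.5 to 59.7 CPM with sh1, 66.5 to 69.9 CPM with sh2 and 48.2 to 50.8 CPM in control. The 3 endothelial markers summed to 14.8 to 20.4 CPM with sh1, 14.8 to 17.3 CPM with sh2 and 12.9 to 15 CPM in control. The 3 leukocyte markers, nearly all of it CD68, summed to 122 to 129 CPM with sh1, 114 to 129 CPM with sh2 and 77.6 to 81.3 CPM in control. The leukocyte gene PTPRC held 98 counts over the sh1 libraries, 89 over the sh2 libraries and 65 over the control libraries, and CD3E held 1 with sh1 and 0 in the other groups. In such bulk RNA, fewer cells of a kind and less RNA per cell cannot be told apart.

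An integrin is a pair of 1 alpha and 1 beta chain, and the pair sets which matrix protein it holds. In stratified epithelium, the beta1 pairs with alpha2 and alpha3 bind collagen and laminin, alpha6 joins beta4 in the hemidesmosome, and alpha5 with beta1 is the classical fibronectin receptor. The alpha-v chain pairs with beta1, beta3, beta5, beta6 or beta8. Talin and kindlin bind the beta tail and switch the receptor on, after which paxillin, FAK, p130Cas and vinculin assemble, and zyxin, VASP, alpha-actinin and filamin link the site to actin.

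Against control, both hairpins lowered more adhesion genes than they raised. As the 36 genes were chosen with earlier results of these data known, their counts describe this list and are no independent test. Of the 36 genes, 33 passed the filter on low counts. With sh1, 29 of the 33 changed, where 69.3% of all 13580 tested genes did, and with sh2 27 changed, where 68.5% of all genes did. With sh1, 21 of them fell and 8 rose at an adjusted p below 0.05, where 34.6% of all genes fell and 34.7% rose. With sh2, 20 fell and 7 rose, where 34.3% of all genes fell and 34.2% rose. The median log2 fold change of the 33 genes was -0.18 with sh1 and -0.17 with sh2, beside 0.014 and 0.005 for all tested genes. Their typical size of change was not set apart: the median absolute log2 fold change was 0.28 with sh1 and 0.31 with sh2, beside 0.32 and 0.30 for all tested genes.

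Most genes pass the plain threshold in these data, so a second count asked in addition for a change of at least 1.5-fold. That rule called 11 adhesion genes with sh1, where it called 24.1% of all genes, and 8 with sh2, where it called 22.2%. With sh1, 8 fell and 3 rose, where 12.8% of all tested genes fell and 11.3% rose. With sh2, 7 fell and 1 rose, where 12.4% of all genes fell and 9.74% rose. The 3 rises with sh1 were ITGA5, ITGB5 and PARVA, and the rise with sh2 was ITGA5. Both hairpins, set against the same control libraries, called 14 of the 33 genes lower and 5 higher (42.4% and 15.2%), where the shares over all tested genes were 20.2% and 19.4%.

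**Figure D1:**
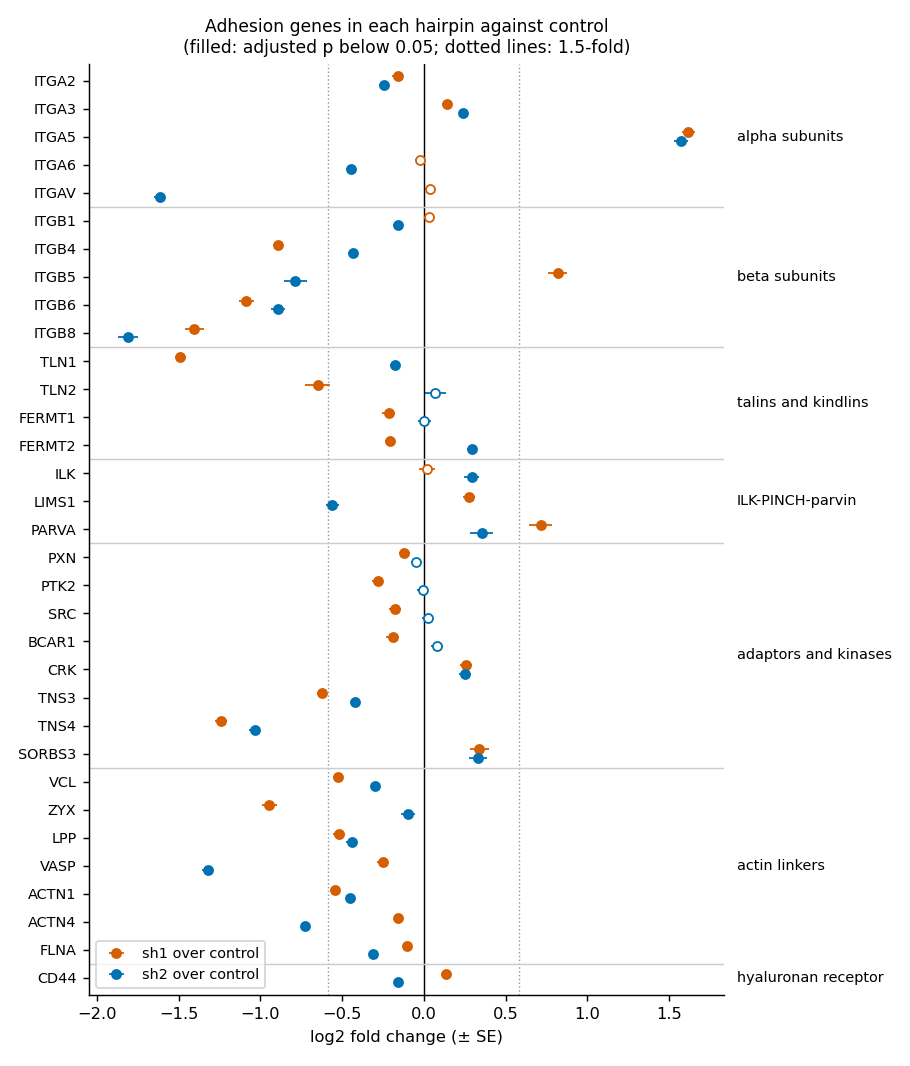
Log2 fold change with its SE for the 33 tested adhesion genes with sh1 (orange) and sh2 (blue) against control, grouped by role, with filled points for an adjusted p below 0.05 and dotted lines at 1.5-fold. ITGA5 lies far to the right with both hairpins at 1.62 and 1.57, all 7 actin linkers lie left of 0, and ITGB5 and LIMS1 have points on both sides.

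Among the alpha subunits, ITGA5 rose 3.07-fold with sh1 and 2.98-fold with sh2, close to each other. This chain of the fibronectin receptor (Entrez gene 3678) had 112, 111 and 115 CPM with sh1 and 109, 109 and 110.3 CPM with sh2, against 36, 36.2 and 38 CPM in control. No hairpin library came near the control libraries, and the hairpin groups lay close together. Its log2 fold change was 1.62 ± 0.041 with sh1 and 1.57 ± 0.041 with sh2, and the sh1 over sh2 difference of 0.045 ± 0.034 did not pass (adjusted p = 0.24, edgeR quasi-likelihood, Benjamini-Hochberg). The size of this change stood at percentile 97.4 of all tested genes with sh1 and at 97.7 with sh2.

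ITGAV, the alpha-v chain (Entrez gene 3685), went apart between the hairpins. It had 235, 228 and 224 CPM with sh1 and 74.6, 73.5 and 70.1 CPM with sh2, against 224, 225 and 221 CPM in control. The sh1 libraries overlapped the control libraries, while each sh2 library held less than any control library. The log2 fold change was -1.62 ± 0.035 with sh2, while sh1 gave 0.038 ± 0.030, which did not pass (adjusted p = 0.264, edgeR quasi-likelihood, Benjamini-Hochberg) except with upper-quartile scaling (0.085, adjusted p = 0.0146). The laminin receptor chain ITGA6 (Entrez gene 3655) was called with sh2 and not with sh1, with 454 ± 6.74 CPM with sh1 and 338 ± 3.17 CPM with sh2, against 461 ± 13.9 CPM in control (SD, n = 3 libraries each). Its log2 fold change of -0.45 with sh2 passed, and its change of -0.024 ± 0.027 with sh1 did not pass.

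ITGA3, another laminin receptor chain and the most abundant alpha transcript, rose a little with both hairpins (log2 fold changes of 0.14 ± 0.026 for sh1 and 0.24 ± 0.026 for sh2). The collagen receptor chain ITGA2 fell a little with both, with changes of -0.16 ± 0.033 and -0.24 ± 0.033. For ITGA2 the sh1 over sh2 difference of 0.083 ± 0.034 passed (adjusted p = 0.0301), but it did not in the fits that left out 1 of sh1 library 1, sh1 library 2, sh2 library 1 or sh2 library 2 (adjusted p of 0.0506 to 0.0701, edgeR quasi-likelihood, Benjamini-Hochberg), nor with DESeq2 (adjusted p = 0.104).

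Of the 6 beta subunits, sh1 lowered ITGB4, ITGB6 and ITGB8 at least 1.5-fold, and sh2 lowered ITGB5, ITGB6 and ITGB8 by that much. ITGB8 (Entrez gene 3696), whose pair with alpha-v binds latent TGF-beta, had 23.5, 23.8 and 23.8 CPM with sh1 and 17.7, 18.9 and 16.9 CPM with sh2, against 58.4, 61.5 and 68.3 CPM in control. Every hairpin library held less than every control library. Its log2 fold change was -1.41 ± 0.059 with sh1 and -1.81 ± 0.061 with sh2 (largest adjusted p = 3.82e-19, edgeR quasi-likelihood, Benjamini-Hochberg), and the level was higher with sh1 than with sh2 by 0.41 ± 0.074. ITGB6 (Entrez gene 3694), an epithelial chain whose alpha-v pair also binds latent TGF-beta, had 35.2, 36 and 34.5 CPM with sh1 and 40.6, 38.7 and 41.5 CPM with sh2, against 74, 74.9 and 75.4 CPM in control. Here too the hairpin libraries all lay under the control libraries, with changes of -1.08 ± 0.045 and -0.89 ± 0.043.

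ITGB4 (Entrez gene 3691), the hemidesmosome chain that pairs with alpha6, had 268, 257 and 268 CPM with sh1 and 358, 355 and 379 CPM with sh2, against 487, 491 and 496 CPM in control. The 3 groups did not overlap, and the sh1 libraries were the lowest. It changed by -0.90 ± 0.030 with sh1 and -0.43 ± 0.029 with sh2. ITGB1, the common beta1 chain, moved little: 482 ± 2.33 CPM with sh1 and 422 ± 8.52 CPM with sh2, against 472 ± 8.36 CPM in control (SD, n = 3 libraries each). Its fall of 0.16 on the log2 scale with sh2 passed (adjusted p = 3.51e-06), and its change of 0.03 ± 0.026 with sh1 did not (adjusted p = 0.315, edgeR quasi-likelihood, Benjamini-Hochberg), except with upper-quartile scaling (0.077, adjusted p = 0.0118). ITGB4 overlaps GALK1 in the RefSeq annotation, so reads of the pair may be mixed.

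ITGB5 (Entrez gene 3693), a chain of the vitronectin receptor with alpha-v, moved in opposite directions. It had 37.6, 36.5 and 37.7 CPM with sh1 and 11.8, 12.8 and 12.2 CPM with sh2, against 21.3, 21.6 and 20.5 CPM in control. The sh1 libraries lay above the control libraries and the sh2 libraries below them. The log2 fold change was 0.82 ± 0.057 with sh1 and -0.79 ± 0.071 with sh2, and sh1 over sh2 was 1.60 ± 0.064 (adjusted p = 1.51e-19, edgeR quasi-likelihood, Benjamini-Hochberg). ITGB3, the beta chain of the platelet and endothelial receptors, held 1 count over the sh1 libraries, 2 over the sh2 libraries and 1 over the control libraries. That is under the floor of 3 counts per library, so no fold is given.

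Levels of different genes were compared as TPM (a transcript measure that takes length into account). In control the alpha chains ran from ITGA3 at 317 ± 6.44 TPM through ITGA6 at 196 ± 8.14 and ITGAV at 79 ± 1.05 to ITGA2 at 38.5 ± 0.34 and ITGA5 at 21.4 ± 0.857 TPM (SD, n = 3 libraries). With either hairpin ITGA5 stood above ITGA2, the reverse of control, at 63.5 ± 1.42 against 33.3 ± 0.355 TPM with sh1 and 60.7 ± 0.294 against 31 ± 0.348 TPM with sh2. With sh2, ITGAV at 24.7 ± 0.886 TPM was the lowest of these 5 alpha chains. Among the beta chains, control held ITGB1 at 305 ± 8.96 TPM, ITGB4 at 210.0 ± 4.44, ITGB6 at 40.7 ± 1.05, ITGB8 at 17.6 ± 1.6 and ITGB5 at 11.9 ± 0.282 TPM. With sh1, ITGB5 at 20.3 ± 0.533 TPM stood just above ITGB6 at 18.4 ± 0.488 TPM, and ITGB8 was the lowest of these 5 at 6.43 ± 0.0265 TPM. Between all neighbours in these orders the gap was larger than the sum of their SDs.

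**Figure D2:**
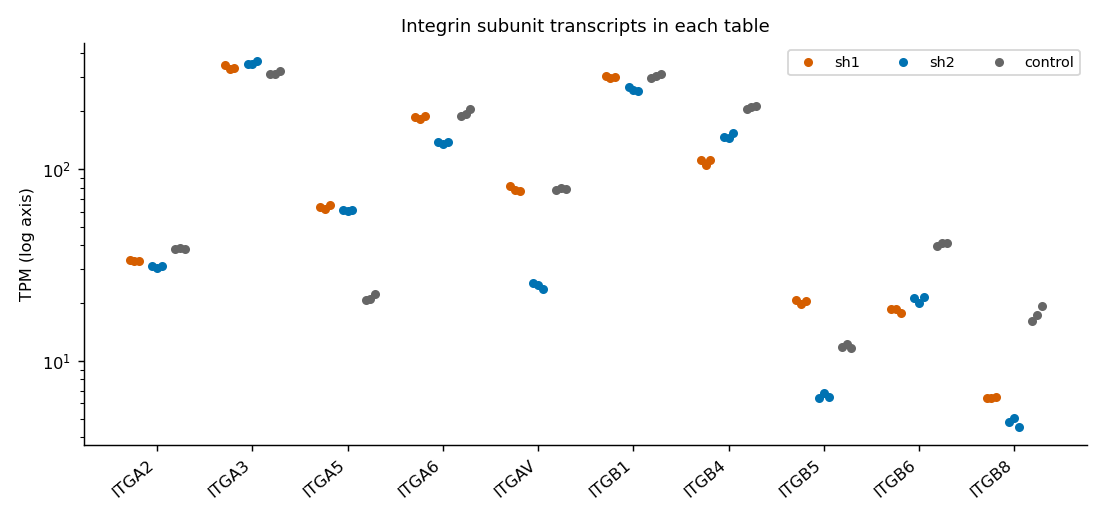
TPM of the 10 tested integrin subunits in each library (log axis), with 3 points each for sh1, sh2 and control. ITGA5 is higher with both hairpins, ITGAV is lowest in the sh2 points, and ITGB5 is split with sh1 on top and sh2 at the bottom.

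As shares of the summed TPM of the 6 beta chains, ITGB1 took 66.1 ± 0.397% with sh1 and 59 ± 1.18% with sh2, against 52.1 ± 0.188% in control (SD, n = 3 libraries each). ITGB4 took 24 ± 0.47% with sh1 and 33.6 ± 1.11% with sh2, against 35.9 ± 0.228% in control. The sum itself was 456 ± 7.43 TPM with sh1 and 441 ± 6.52 TPM with sh2, against 586 ± 15.8 TPM in control, so the larger ITGB1 share stood beside a smaller total. Among the alpha chains, ITGA5 took 9.07 ± 0.173% with sh1 and 9.93 ± 0.0848% with sh2, against 3.27 ± 0.0553% in control. ITGAV took 11.2 ± 0.257% with sh1 and 4.05 ± 0.185% with sh2, against 12.1 ± 0.272% in control. ITGA3 took 58.5 ± 0.585% with sh2, against 48.7 ± 0.405% in control. These are shares of transcripts, and they say nothing on which pairs reached the cell surface.

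**Figure D3:**
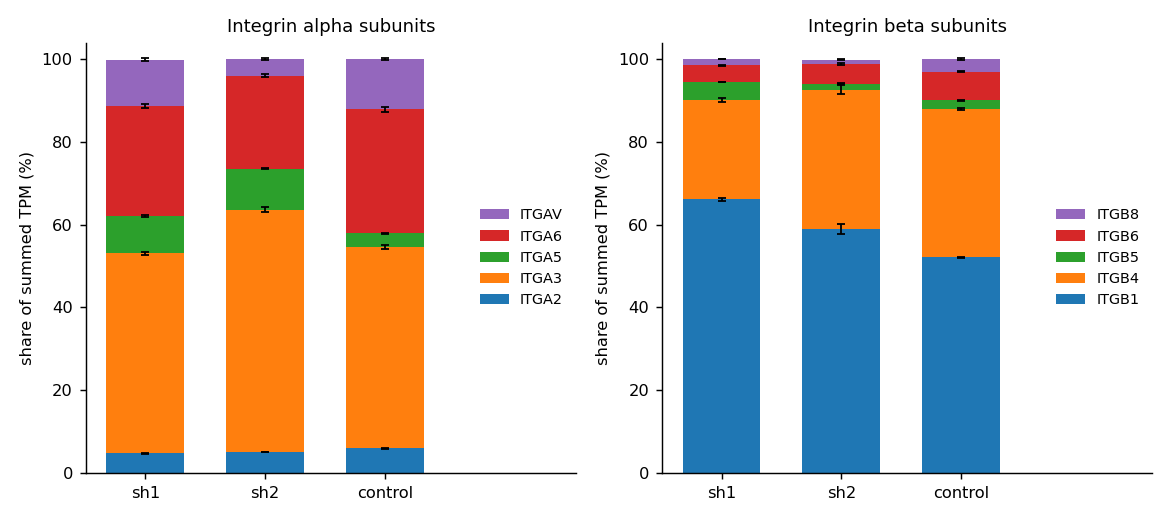
Stacked bars of each alpha (left) and beta (right) integrin chain as a percentage of the summed TPM of its family, as the mean of 3 libraries with SD bars, for sh1, sh2 and control; ITGB3, near 0, is not drawn. The ITGA5 band is wider with both hairpins at 9.07% and 9.93% against 3.27% in control, and the ITGB4 band is narrowest with sh1 at 24.0%.

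Promoter sequences are shown for 3 members: ITGA5, the one gene that rose at least 1.5-fold with both hairpins, and VCL and ITGB6, from the 14 called lower with both. They come from RefSeq (GRCh38.p14), run from 250 bases before to 50 bases after the annotated start, and read 5′ to 3′ along the gene: ITGA5 at chr12:54419217-54419516 on the minus strand, VCL at chr10:73997866-73998165 on the plus strand and ITGB6 at chr2:160200223-160200522 on the minus strand. Capitals mark the motif letters GGAATG (the core bound by TEAD factors), TGANTCA (AP-1), GGGCGG (SP and KLF factors) and the CArG box of the serum response factor, each searched on both strands.
ITGA5: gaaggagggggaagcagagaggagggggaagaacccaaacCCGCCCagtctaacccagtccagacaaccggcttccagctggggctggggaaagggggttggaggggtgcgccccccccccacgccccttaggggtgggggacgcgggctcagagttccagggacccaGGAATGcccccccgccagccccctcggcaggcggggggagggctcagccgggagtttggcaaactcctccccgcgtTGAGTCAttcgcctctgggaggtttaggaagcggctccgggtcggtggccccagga
VCL: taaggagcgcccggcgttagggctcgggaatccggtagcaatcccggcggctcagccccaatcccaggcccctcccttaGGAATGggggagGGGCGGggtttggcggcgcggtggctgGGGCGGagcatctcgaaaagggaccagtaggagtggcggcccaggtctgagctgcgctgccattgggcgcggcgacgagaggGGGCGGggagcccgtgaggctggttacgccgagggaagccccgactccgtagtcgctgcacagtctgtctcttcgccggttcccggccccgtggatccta
ITGB6: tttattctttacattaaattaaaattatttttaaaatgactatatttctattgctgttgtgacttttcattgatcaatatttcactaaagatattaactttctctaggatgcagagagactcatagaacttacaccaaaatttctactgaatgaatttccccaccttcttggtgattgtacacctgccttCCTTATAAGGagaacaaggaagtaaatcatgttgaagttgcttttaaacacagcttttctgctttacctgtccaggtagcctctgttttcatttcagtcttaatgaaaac
GGAATG stood once in the ITGA5 window and once in the VCL window, while ITGA5 rose and VCL fell. The windows of TNS3 and VASP, also called lower with both hairpins and not shown, held none of the marked motifs. ITGA5 also held 1 TGANTCA and 1 GGGCGG, VCL held 3 GGGCGG, and ITGB6 held a CArG box alone. Of the 36 members 27 had a promoter in the table. GGAATG was in 3 of these (11.1%, ITGA5, ITGB1 and VCL) and in 14.0% of all 35116 promoters of that length, TGANTCA in 3 (11.1%, ITGA5, ACTN4 and BCAR1) and in 7.71% of all, and a CArG box in 2 (7.41%, FLNA and ITGB6) and in 1.29% of all. TGACGTCA, the cyclic AMP response element, was in 1 (3.7%, LPP) and in 1.85% of all. GGGCGG was in 20 (74.1%) and in 45.0% of all, where the median GC content was 71.7% in the members' windows and 58.7% in all. The set of all promoters was not limited to the genes tested here, so it is not a matched background. A match is a description of letters and not a bound site, and the motifs were chosen after the values were seen.

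The talins and kindlins, which bind the beta tail, fell with sh1 for 4 of 4 genes, while sh2 lowered TLN1, raised FERMT2 and gave no call for the others. The shares of all tested genes called lower were 34.6% with sh1 and 34.3% with sh2. TLN1 (Entrez gene 7094), the main talin, had 95, 89.5 and 95.2 CPM with sh1 and 230.0, 230.2 and 237 CPM with sh2, against 255, 263 and 268 CPM in control. The sh1 libraries stood far below the rest, and the sh2 libraries just below control. It changed by -1.49 ± 0.034 with sh1 and -0.17 ± 0.030 with sh2. Its paralog TLN2 had 17.4 ± 2.15 CPM with sh1 and 28.7 ± 1.34 CPM with sh2, against 27.3 ± 1.16 CPM in control (SD, n = 3 libraries each). It fell by 0.65 on the log2 scale with sh1, and its change of 0.071 ± 0.066 with sh2 did not pass (adjusted p = 0.344, edgeR quasi-likelihood, Benjamini-Hochberg). Both talins were lower with sh1 than with sh2, with differences of -1.32 ± 0.034 and -0.72 ± 0.073, and TLN1 made up 88.1 ± 1.3% of talin TPM with sh1 and 91.8 ± 0.295% with sh2, against 93 ± 0.133% in control.

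FERMT2 (kindlin-2, Entrez gene 10979), the broadly expressed kindlin, had 193, 194 and 196 CPM with sh1 and 274, 278 and 273 CPM with sh2, against 228, 221 and 223 CPM in control. The groups did not overlap, with sh1 lowest and sh2 highest. The changes of -0.21 ± 0.029 with sh1 and 0.29 ± 0.028 with sh2 were opposite in sign, and sh1 over sh2 was -0.50 ± 0.029 (adjusted p = 1.11e-15, edgeR quasi-likelihood, Benjamini-Hochberg). FERMT1 (kindlin-1), the epithelial kindlin, fell by 0.22 on the log2 scale with sh1 and had 0.004 ± 0.041 with sh2, which did not pass. FERMT2 supplied most of the kindlin TPM in all groups, at 85.8 ± 0.0384% with sh1, 88 ± 0.301% with sh2 and 85.7 ± 0.0733% in control.

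ILK (integrin-linked kinase), PINCH-1 (encoded by LIMS1) and alpha-parvin (encoded by PARVA) form 1 complex at the beta tail, and their transcripts did not move together. LIMS1 (Entrez gene 3987) had 116, 117 and 115 CPM with sh1 and 65.4, 67 and 62.6 CPM with sh2, against 94.3, 98.6 and 94.6 CPM in control. The sh1 libraries were above control and the sh2 libraries below it, with changes of 0.28 ± 0.036 and -0.56 ± 0.038, and sh1 over sh2 was 0.83 ± 0.037 (adjusted p = 3.24e-18, edgeR quasi-likelihood, Benjamini-Hochberg). PARVA rose with both, to 29.6 ± 1.28 CPM with sh1 and 23 ± 0.61 CPM with sh2, against 18 ± 1.94 CPM in control (SD, n = 3 libraries each), which is 0.71 ± 0.070 and 0.35 ± 0.072 on the log2 scale. ILK rose with sh2 by 0.29 ± 0.047 and had 0.019 ± 0.050 with sh1, which did not pass (adjusted p = 0.743). PARVB, the beta-parvin gene, held 7 counts over the sh1 libraries, 6 over the sh2 libraries and 2 over the control libraries, at or under 3 counts in each library, and was not tested. LIMS1 has near-identical relatives, so the assignment of its reads is uncertain.

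The adaptors and kinases shifted in small steps, apart from the tensins. With sh1, 6 of the 8 tested genes fell and 2 rose, and with sh2, 2 fell, 2 rose and 4 did not pass. Of all tested genes, 34.6% fell and 34.7% rose with sh1, and 34.3% fell and 34.2% rose with sh2. TNS4 (Entrez gene 84951), a short tensin without the actin-binding region, had 192, 184 and 188 CPM with sh1 and 209.6, 208 and 232 CPM with sh2, against 437, 451 and 443 CPM in control. All hairpin libraries were below all control libraries, and the change was -1.24 ± 0.034 with sh1 and -1.04 ± 0.033 with sh2. TNS3, a full-length tensin that binds actin, fell to 125 ± 2.11 CPM with sh1 and 144 ± 1.43 CPM with sh2, against 192 ± 1.45 CPM in control. TNS4 made up 73.8 ± 0.537% of their summed TPM with sh1 and 73.8 ± 0.987% with sh2, against 81.2 ± 0.143% in control.

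Focal adhesion kinase, encoded by PTK2, and its partner kinase SRC fell only slightly with sh1, by 0.28 and 0.18 on the log2 scale. With sh2 they had -0.006 ± 0.033 and 0.024 ± 0.035, which did not pass (adjusted p = 0.886 and 0.558, edgeR quasi-likelihood, Benjamini-Hochberg). BCAR1, which encodes the scaffold p130Cas, and PXN, which encodes paxillin, fell by 0.19 and 0.12 with sh1, where PXN did not pass with upper-quartile scaling (-0.073, adjusted p = 0.0531). Their values with sh2, 0.08 ± 0.038 and -0.047 ± 0.033, did not pass. BCAR1 passed with upper-quartile scaling (0.098, adjusted p = 0.0217) and without sh2 library 1 (0.10, adjusted p = 0.0401, edgeR quasi-likelihood, Benjamini-Hochberg), and without sh2 library 3 PXN had -0.087 (adjusted p = 0.0159). All 4 of these were lower with sh1 than with sh2 by point value, and the difference passed for PTK2, SRC and BCAR1 but not for PXN (-0.073 ± 0.033, adjusted p = 0.0548, edgeR quasi-likelihood, Benjamini-Hochberg). CRK, the adaptor that docks on p130Cas, rose with both hairpins by 0.26 ± 0.036 and 0.25 ± 0.036, and SORBS3, encoding the vinculin-binding vinexin, by 0.34 ± 0.056 and 0.33 ± 0.056. For SORBS3, sh2 library 3 stood apart at 72.3 CPM, beside 60.35 and 59.98 CPM in sh2 libraries 1 and 2. TGFB1I1, encoding the paxillin relative Hic-5, held 1, 2 and 3 counts over the sh1, sh2 and control libraries and was not tested.

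All 7 actin linkers were called lower with each hairpin, where 34.6% of all tested genes were called lower with sh1 and 34.3% with sh2. Their median log2 fold changes were -0.52 with sh1 and -0.44 with sh2. The call for ZYX with sh2 is lost in 9 of the 16 alternatives, and the other 6 kept their calls in every alternative run. VASP (Entrez gene 7408), which speeds actin filament growth at adhesions, had 97.5, 96.6 and 98.2 CPM with sh1 and 46.8, 45.4 and 47.2 CPM with sh2, against 116, 115 and 117 CPM in control. The sh2 libraries were lowest by far, with a change of -1.32 ± 0.038, while sh1 gave -0.25 ± 0.034. ZYX (zyxin, Entrez gene 7791), a LIM protein that recruits VASP, had 91.9, 93.1 and 97.9 CPM with sh1 and 164, 157 and 188 CPM with sh2, against 182, 182 and 180.4 CPM in control. It fell with sh1 by 0.95 on the log2 scale, and the sh1 libraries lay clear of control.

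With sh2 the ZYX libraries overlapped control, and sh2 library 3 stood highest of all 9 libraries. The change of -0.097 ± 0.042 just passed (adjusted p = 0.0437, edgeR quasi-likelihood, Benjamini-Hochberg) and did not pass in 5 of the 9 fits that each leave out 1 library, nor with DESeq2, upper-quartile scaling or either log2 FPKM setting (adjusted p of 0.0732 to 0.0955). The 5 were the fits without sh2 library 1 (-0.075), sh2 library 2 (-0.047), control library 1 (-0.10), control library 2 (-0.10) and control library 3 (-0.11). Sh1 over sh2 was -0.85 ± 0.046 for ZYX and 1.07 ± 0.039 for VASP, so these partners differed between the hairpins in opposite senses.

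ACTN4 (alpha-actinin-4, Entrez gene 81), an actin cross-linker, had 909, 889 and 899 CPM with sh1 and 595, 597 and 629 CPM with sh2, against 998, 1007 and 1002 CPM in control. It changed by -0.16 ± 0.025 with sh1 and -0.72 ± 0.026 with sh2. ACTN1 (alpha-actinin-1) fell with both, to 531 ± 11.5 CPM with sh1 and 566 ± 14 CPM with sh2, against 775 ± 9.71 CPM in control (SD, n = 3 libraries each). ACTN4 thus made up 61.5 ± 0.34% of the alpha-actinin TPM with sh1 and 50.2 ± 0.898% with sh2, against 54.9 ± 0.423% in control. VCL, encoding vinculin, which joins talin to actin, fell to 339 ± 2.83 CPM with sh1 and 397 ± 3.44 CPM with sh2, against 489 ± 5.15 CPM in control. LPP, a zyxin relative, changed by -0.52 ± 0.035 and -0.44 ± 0.035. FLNA (filamin A), which cross-links actin and binds beta tails, changed by -0.10 ± 0.023 and -0.31 ± 0.023.

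**Figure D4:**
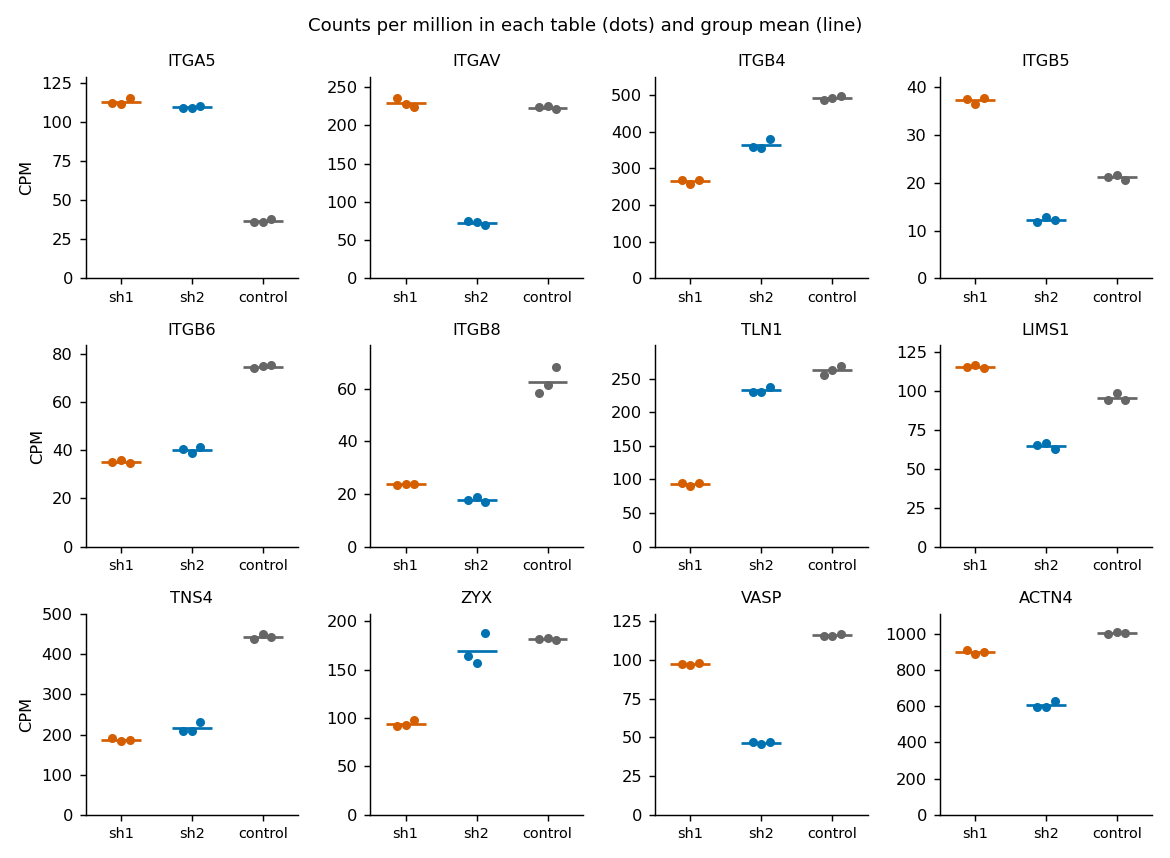
CPM of 12 members in each library (dots) with the group mean (line), for sh1, sh2 and control, on axes that start at 0. ITGA5 is higher and ITGB4, ITGB6, ITGB8 and TNS4 are lower in all hairpin libraries, TLN1 is lowest with sh1, ITGAV and VASP are lowest with sh2, and ITGB5 and LIMS1 lie on either side of control.

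CD44, which binds hyaluronan and is tied to actin through ezrin-family proteins, moved little and in opposite directions. It had 650.4 ± 15.6 CPM with sh1 and 532 ± 12.4 CPM with sh2, against 593 ± 11.9 CPM in control (SD, n = 3 libraries each). The changes were 0.13 ± 0.027 with sh1 and -0.16 ± 0.027 with sh2, and sh1 over sh2 was 0.29 ± 0.027 (adjusted p = 9.28e-11, edgeR quasi-likelihood, Benjamini-Hochberg).

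Set directly against each other, the hairpins differed for 28 of the 33 tested members, with 12 higher and 16 lower in sh1 than in sh2, where 69.8% of all tested genes differed, 34.2% higher and 35.6% lower. At 1.5-fold or more, 7 members differed, where 23.3% of all tested genes did. ITGAV, ITGB5, LIMS1 and VASP were higher with sh1 (12% of all tested genes) and TLN1, TLN2 and ZYX lower (11.3% of all tested genes). Opposite calls against control were made for 4 members (12.1%, beside 12.7% of all tested genes): ITGB5, LIMS1 and CD44 were above control with sh1 but below it with sh2, and FERMT2 the other way. ITGA5, CRK, SORBS3, PXN and LPP did not pass between the hairpins, but PXN did without sh1 library 3, sh2 library 1 or sh2 library 2 (-0.091 to -0.09), and LPP without sh1 library 3 (-0.095). For ITGA5 the difference of 0.045 ± 0.034 is small beside its rise of 1.62.

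The rest of the adhesion pathway was read from 119 other genes in 5 lists, of which 103 were tested. With sh1, 39 rose and 42 fell, and with sh2, 27 rose and 47 fell, where 34.7% of all tested genes rose and 34.6% fell with sh1, and 34.2% rose and 34.3% fell with sh2. Of 7 hemidesmosome genes, 4 rose and 1 fell with sh1, and 2 rose and 3 fell with sh2. COL17A1, the transmembrane collagen XVII, rose (log2 fold change 0.74 ± 0.037 for sh1, 0.59 ± 0.037 for sh2). DST, which encodes the plaque protein BP230, changed by -0.72 ± 0.028 with sh1 and -1.10 ± 0.028 with sh2. This count per gene does not tell which DST transcripts changed. The tetraspanin CD151, a partner of laminin-binding integrins, had 0.61 ± 0.040 with sh1 and -0.38 ± 0.045 with sh2. Among the chains of laminins, the ligands of alpha6 with beta4, LAMA3 had 0.59 ± 0.031 with sh1 and 0.075 ± 0.032 with sh2. LAMB3 had -0.007 ± 0.026 with sh1 and 0.016 ± 0.026 with sh2 and passed with neither hairpin. PLEC (plectin), which ties beta4 to keratin, fell with sh2 (-0.14) and had -0.026 ± 0.027 with sh1, which did not pass.

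Of 15 other integrin subunits 10 were tested. With sh1, 4 rose and 2 fell, and with sh2, 3 fell (edgeR quasi-likelihood, Benjamini-Hochberg), beside 34.7%, 34.6% and 34.3% of all tested genes. ITGA1, a collagen receptor chain, fell to 11.7 ± 1.1 CPM with sh1 and 9.54 ± 0.162 CPM with sh2, against 18.8 ± 0.536 CPM in control. ITGAM, known as a leukocyte chain, rose with sh1 to 8.05 ± 0.23 CPM, and had 3.21 ± 0.0976 CPM with sh2, against 2.52 ± 0.229 CPM in control. ITGAL, another leukocyte chain, rose by 1.01 ± 0.235 with sh1 and had 0.37 ± 0.253 with sh2, which did not pass. ITGA4 changed by -0.95 ± 0.334 with sh1 and -1.22 ± 0.343 with sh2 on 27, 24 and 54 counts in the sh1, sh2 and control libraries. The leukocyte marker CD68, which other cells also express, averaged 123.5 CPM with sh1 and 118 CPM with sh2, against 78.2 CPM in control, and its part in these values was not tested.

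Of 37 tested adaptors and signalling genes, 12 rose and 16 fell with sh1, and 9 rose and 18 fell with sh2. Over all tested genes, 34.7% rose and 34.6% fell with sh1, and 34.2% rose and 34.3% fell with sh2. PTPN11, encoding the phosphatase SHP2, and PAK2, a kinase that acts downstream of Rac, had the largest falls of the list with sh1: -1.76 ± 0.040 with sh1 and 0.14 ± 0.034 with sh2 for PTPN11, and -1.56 ± 0.031 with sh1 and -0.52 ± 0.028 with sh2 for PAK2. RAPGEF1, an exchange factor for Rap1 that binds CRK, changed by 0.20 ± 0.040 with sh1 and -1.16 ± 0.046 with sh2, and SLC3A2, the heavy chain that binds beta1 integrin, by -0.39 ± 0.028 with sh1 and -1.11 ± 0.029 with sh2. The rises of greatest size in the list with sh1 were KANK2 (0.47 ± 0.046 with sh1 and 0.039 ± 0.048 with sh2, the second of which did not pass) and ITGB1BP1 (0.44 ± 0.055 with sh1 and 0.39 ± 0.055 with sh2). With sh2 they were GIT2 (0.24 ± 0.046 with sh1 and 0.45 ± 0.044 with sh2) and RAP1B, which was called lower with sh1 (-0.17 ± 0.033 with sh1 and 0.41 ± 0.032 with sh2).

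Of 29 other actin linkers and LIM proteins, 6 rose and 18 fell with sh1, and 10 rose and 12 fell with sh2, beside 34.7% and 34.6% of all tested genes with sh1 and 34.2% and 34.3% with sh2. AJUBA, a LIM protein of the zyxin family, changed by -1.50 ± 0.039 with sh1 and -1.45 ± 0.038 with sh2. FHL2 fell with both (-1.31 ± 0.082 with sh1 and -0.56 ± 0.073 with sh2), and so did FBLIM1, encoding migfilin (-0.68 ± 0.045 with sh1 and -0.87 ± 0.046 with sh2). CTTN (cortactin) rose with both (0.59 ± 0.023 with sh1 and 0.20 ± 0.023 with sh2), as did NF2, encoding merlin (0.53 ± 0.058 with sh1 and 0.19 ± 0.060 with sh2), and LASP1 (0.11 ± 0.028 with sh1 and 0.39 ± 0.028 with sh2). FLNC was called higher with sh2 on 44 counts over its libraries, against 5 over the control libraries, and its 14 counts with sh1 did not pass.

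The list of matrix ligands, which also holds the enzyme gene HAS3, had 20 tested genes. Of these, 13 rose and 5 fell with sh1, while 6 rose and 11 fell with sh2. The shares of all tested genes were 34.7% higher and 34.6% lower with sh1, and 34.2% higher and 34.3% lower with sh2. TNC (tenascin-C), which alpha-v integrins can bind, rose to 74.1 ± 3.06 CPM with sh1 and 42.3 ± 0.799 CPM with sh2, against 20.3 ± 0.678 CPM in control (SD, n = 3 libraries each). SPP1 (osteopontin), another ligand of alpha-v, changed by 0.36 ± 0.079 with sh1 and 1.23 ± 0.069 with sh2. EDIL3, a ligand with an RGD motif, changed by 0.30 ± 0.038 with sh1 and -1.89 ± 0.049 with sh2. CCN1, a matricellular ligand, changed by -1.58 ± 0.047 with sh1 and -1.52 ± 0.046 with sh2, and HAS3, a hyaluronan synthase, by -1.24 ± 0.038 with sh1 and -1.18 ± 0.037 with sh2. MFGE8, a ligand with an RGD motif, was called in opposite directions (0.99 ± 0.045 with sh1 and -0.26 ± 0.051 with sh2).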

How the data were processed

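The study's purpose, per the series record, was to screen for potential targets of TCONS_02256997; that transcript was not analysed here. The members and lists were chosen with earlier results of these data known. Tools named in the submitters' processing notes, with no role, are RSEM 1.2.12, HISAT2 2.0.4, DESeq2 1.4.5 and Bowtie2 2.2.5, and the build named is hg19. Per the file headers, each of 9 tables gives expected counts, TPM, FPKM and a gene length as deposited by the authors. Deposited expected counts are estimates, 70.0% to 70.4% of them within 1e-06 of a whole number, and were rounded. TPM and FPKM values deposited by the authors served for levels between genes, shares and 2 alternatives, which used log2(FPKM + 1) or log2(FPKM + 0.1), as computed here from the deposited values, limited to genes whose mean reached 1 FPKM. The tables of a sample differed by more than sampling noise (chi-square per gene of 1.41 to 2.44). The highest values, 2.15 and 2.44, were those of sh2 library 3 against sh2 libraries 1 and 2.

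In R 4.3.3 with edgeR 4.0.16, filterByExpr kept 13580 genes, TMM scaled the 9 libraries (factors of 0.993 to 1.005), and 1 quasi-likelihood fit with group as its only term gave all contrasts. Benjamini-Hochberg adjustment ran over all tested genes, with calls below 0.05. The SE is the absolute log2 fold change over the square root of F. DESeq2 1.42.0 and limma 3.58.1 were alternatives, beside upper-quartile scaling, no filter, only 2 groups in the fit, a block by library number, and each library left out in turn. The method was also run on simulated data drawn with the spread between these libraries, so that run cannot address the spread between cultures. Named genes are all members, and in each list the 2 called genes of largest change per direction and hairpin, with the hemidesmosome genes, 1 of which is not reported here, and cell type markers. Symbols came from RefSeq (GRCh38.p14) for 19223 of 19266 identifiers. The sources used here do not give the strand setting of the counting, so members that overlap another gene in that annotation are uncertain (ILK with TAF10, VCL with AP3M1, ZYX with FAM131B, ACTN4 with CAPN12, ITGB4 with GALK1, and several with antisense genes). A floor of 3 counts is 0.186 to 0.205 CPM and covers counting error only.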

Additional observations from a re-analysis of the deposited data

Results flagged for a closer look

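Among the 33 tested members, 4 (12.1%) were called in opposite directions by the hairpins, beside 12.7% of all tested genes. The hairpins shared the same control libraries, and the direct contrast of sh1 with sh2 passed for each of the 4 (edgeR quasi-likelihood, Benjamini-Hochberg). ITGB5 had a log2 fold change of 1.605 ± 0.064 in sh1 over sh2, with sh1 above control and sh2 below it in 3 of 3 libraries each. LIMS1 had 0.83 ± 0.037 and CD44 0.29 ± 0.027 in the same sense. FERMT2 had -0.50 ± 0.029, with sh1 below control and sh2 above it. As there is 1 sample per hairpin, a difference between hairpins and a difference between samples cannot be told apart.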

How the results depend on the processing

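All 21 counts of calls stayed within 1.5 times of their value under each of the 16 alternatives (336 values). The alternatives run for the 78 shares could not show a dependence. Shares of FPKM equal shares of TPM within a library, and leaving out 1 of 3 libraries cannot move a mean by 1 SD. Of 99 log2 fold changes of members, 84 kept sign and side of the threshold in every alternative run. Of 1584 values, 15 lost a call, 11 gained one and 17 changed sign, and each of the 17 belonged to a change that was called neither with the reported settings nor in the alternative. With upper-quartile scaling, ITGA6 with sh1 had 0.022 and PTK2 with sh2 0.013. FERMT1 with sh2 had -0.002 with DESeq2, -0.007 with no filter and 0 with either log2 FPKM. Over the fits without 1 library each, the range was -0.01 to 0.015 for FERMT1 with sh2, -0.035 to 0.021 for PTK2 with sh2, -0.042 to 0.001 for ITGA6 and -0.002 to 0.059 for ILK with sh1, and -0.024 to 0.035 for CRK and -0.035 to 0.101 for SORBS3 in sh1 over sh2. The causes were not tested. Lost calls were for ZYX with sh2 (9, with DESeq2, upper-quartile scaling and both log2 FPKM settings beside the 5 libraries named above), ITGA2 in sh1 over sh2 (5, with DESeq2 and 4 fits without 1 library) and PXN with sh1 (1, with upper-quartile scaling). Same-numbered libraries had correlations of deviations of -0.077 to 0.043, beside -0.085 to 0.067 for libraries of different number. No shared effect of the number was seen, but with 3 libraries per group these values cannot exclude one. With the library number as a replicate block, 9431 genes were called with sh1, 9295 with sh2 and 9501 in sh1 over sh2, against 9409, 9298 and 9477 without it. That block turned PXN (-0.072) and LPP (-0.08) in sh1 over sh2 into calls. The spread between libraries limits what can be read: small changes of deeply counted genes pass while the spread between cultures is unknown.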

Other observations

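Each table also gives a gene length that weights a gene's transcripts by their estimated abundance, so a shift in length is a shift in estimated transcript mix. Of the 36 members 23 have several transcripts in the tables. CD44, with 8 listed transcripts, had a length of 5577, 5546 and 5532 bases with sh1 and 5496, 5539 and 5467 bases with sh2, against 5572, 5593 and 5579 bases in control. Its sh2 libraries did not overlap control and its sh1 libraries did. LPP had 18042, 18005 and 18031 bases with sh2, against 17915, 17928 and 17867 bases in control, while its sh1 libraries overlapped control. LIMS1 had 4458, 4446 and 4475 bases with sh2, against 4428, 4429 and 4426 bases in control, beside its lower count with sh2. The sh2 libraries of VCL, ILK and ACTN4 and the sh1 libraries of FERMT2 also did not overlap control. For ACTN4 the lengths, rounded to whole bases, were 3971 with sh2 and 3972 in control. How often this holds over all genes was not counted, so these cases cannot be read as a result about the members. All these shifts are small beside the lengths and rest on estimates of transcript abundance, and those printed were chosen after the values were seen. ITGA6, ITGAV, ITGB1, ITGB4 and ITGB6, the integrin chains with several transcripts, had lengths that overlapped between every pair of groups.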
